A study of Mus musculus with 12 samples.

Results

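Control differentiation of MC3T3-E1 cells, a mouse preosteoblast line, is described here from 4 of the 12 RNA sequencing libraries of the series: the 2 control libraries at day 21, compared with the 2 control libraries at day 0. They were taken by their labels, and all 17289 genes with enough counts were compared. All cells were of the same line and labelled wild type (WT). The labels of the control cells name no IFN; day 0 was 2 days after confluence in medium with 10% serum, when bone differentiation was induced. The labels do not list the components of the differentiation medium. The other libraries enter where stated: control day 14, and an arm given mouse interferon beta, a type I interferon (IFN, 50 mg/L in the labels), from the start of differentiation, with 2 libraries each for day 0, day 14 and day 21. The labels do not say whether the IFN libraries of day 0 had been exposed, nor whether replicates were separate cultures, so a p-value measures the spread between these libraries, which may be technical. In bulk RNA, more cells of a kind and more RNA per cell cannot be told apart.

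Osteoblasts build bone in stages: they first lay down a collagen matrix, then raise alkaline phosphatase and the mineral-binding proteins of that matrix, and some finally become osteocytes. The transcription factors Runx2 and Sp7 are needed for this lineage, and Wnt, BMP and glucocorticoid signals act on it. Folding secreted collagen loads the endoplasmic reticulum (ER), whose stress response raises chaperones such as Hspa5.

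The total count was 33994237 and 33411108 in the day 21 libraries and 31845405 and 38908453 in the day 0 libraries. Values are CPM, the usual scaling of a count to the size of its library, here after TMM correction, and log2 fold changes are day 21 over day 0 ± SE. A gene was called when the Benjamini-Hochberg adjusted p of edgeR's quasi-likelihood test over all 12 libraries was below 0.05, and "rose" and "fell" are used of called genes. That fit gives every group a pooled biological coefficient of variation of 0.280, whereas the 6 control libraries alone had 0.392 and the 6 IFN libraries 0.0639. On simulated data in which each arm had its own spread, it called more unchanged genes than its threshold allows, so its adjusted p-values are too small for the control arm. Outcomes of 2 stricter fits are therefore given for many of the lists and beside many of the named genes, sometimes for 1 of the fits alone. A call printed without a stricter fit passed the 12-library fit and is not stated to pass that stricter fit. Genes printed below with a passing arm-weighted value alone did not pass the control-only fit. The control-only fit used the 6 control libraries, and the arm-weighted fit was a limma voom fit with 1 weight per arm.

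Control day 21 replicate 2, called the stressed library here for its stress genes, stood apart from the other libraries. Hspa5, the main chaperone of the ER (mm10 chromosome 2, 34771970 to 34777547), was at 25678 CPM in that library and at 959 CPM in day 21 replicate 1, against 563 and 877 CPM at day 0. The TMM factor of the library was 0.809, while those of the other 3 were between 1.01 and 1.02. Summed over the 32 genes of an ER stress list, the level was 76994 CPM in replicate 2 and 7499 CPM in replicate 1 at day 21, against 6344 and 6672 CPM at day 0. All 31 tested genes of the list were higher in replicate 2 than in replicate 1, 21 of them at least 4-fold. Atf3, a stress-induced transcription factor, was at 22.1 and 847 CPM in replicates 1 and 2 of day 21, and the secreted ER protein gene Creld2 at 70.7 and 1517 CPM. Over all tested genes, 845 were at least 4-fold higher in replicate 2 and 681 at least 4-fold higher in replicate 1. The largest excess in replicate 2 was that of Fos (53.4-fold), Hspa1b (47.8-fold), Atf3 (38.3-fold), Pgm5 (32.3-fold), Egr1 (32.2-fold) and Hmox1 (30.9-fold). The largest excess in replicate 1 was that of Nos2 (55.1-fold), Cd33 (29.8-fold), Pik3r5 (26.9-fold), Megf10 (26.9-fold), Vwf (22.9-fold) and Smoc2 (18.9-fold). The median SD of log2 CPM between replicates was 0.44 at day 21 and 0.29 at day 0. At day 0, replicate 1 stood apart by an annotated ribosomal RNA gene, CT010467.1, at 21084 CPM against 1103 CPM in replicate 2, and by the immediate early gene Fos at 2.22 and 407 CPM in replicates 1 and 2. Replicate 1 was the higher for CT010467.1 and the lower for Fos at day 21 as well, at 5917 and 148 CPM and 3.65 and 198 CPM in replicates 1 and 2. The same order was seen at control day 14, at 8633 and 99.3 CPM for CT010467.1 and 4.24 and 16.6 CPM for Fos. Whether these differences between libraries touch the results that follow was not tested beyond the fits that leave a library out.

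The promoter of Hspa5 is shown because the letters of the ER stress response element, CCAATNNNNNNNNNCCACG, occur in it; they lie 65 to 47 bases before RefSeq's annotated start, which is downstream of the GENCODE gene start given above, and are in capitals. The sequence is from RefSeq (GRCm38.p6, the assembly of mm10), chr2:34771840-34772139, plus strand, written 5′ to 3′.
Hspa5 promoter: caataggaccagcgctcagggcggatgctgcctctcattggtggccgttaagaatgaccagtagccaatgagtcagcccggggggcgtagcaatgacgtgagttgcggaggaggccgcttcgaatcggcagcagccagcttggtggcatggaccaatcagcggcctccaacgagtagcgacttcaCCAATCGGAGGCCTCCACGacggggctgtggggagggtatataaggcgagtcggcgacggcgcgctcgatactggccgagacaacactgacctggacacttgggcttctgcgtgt
Both strands were searched. Of 32851 promoter windows of 300 bases, 0.119% held these letters, and among the 28 ER stress genes with a window 9 did. The motifs here and below were chosen after values were seen, and a match describes letters, not binding.

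Of the 17289 genes, 1114 (6.44%) were called at day 21: 660 rose (3.82%) and 454 fell (2.63%). Every day 21 library lay above every day 0 library for 3682 genes (21.3%) and below for 3697 (21.4%), and the groups overlapped for the other 9910. Of the 1114 called genes, 1113 did not overlap, so a lack of overlap adds little to a call. To keep genes on which both day 21 libraries had to move, a gene was taken as concordant when it was called and its nearest day 21 and day 0 libraries were at least 2-fold apart on the log2 CPM scale. There were 526 concordant genes, 358 higher (2.07%) and 168 lower (0.972%). At the limit, Sgsm1 was just inside with a smallest log2 difference of 1.00341 and Klra4 just outside with 0.997923. Among lower genes, Kctd1 was just inside with -1.00199 and Six2 just outside with -0.999326. Without day 21 replicate 2, 245 of the 358 higher and 95 of the 168 lower concordant genes were still called. Without day 0 replicate 1, 154 and 100 were.

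**Figure D1:**
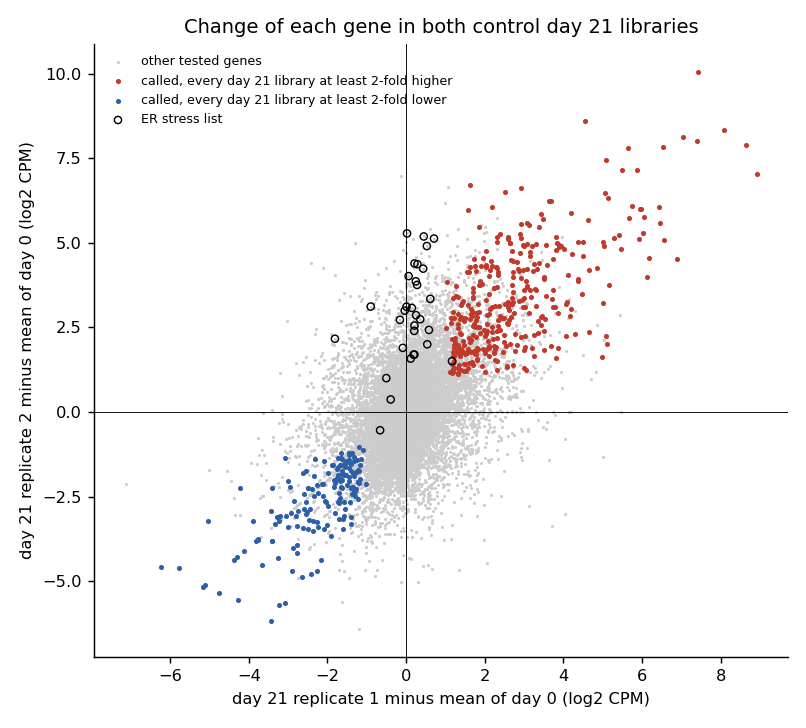
Each point is a tested gene; the horizontal axis gives day 21 replicate 1 and the vertical axis day 21 replicate 2, both as log2 CPM minus the mean of the 2 day 0 libraries. Red and blue mark the 358 higher and 168 lower concordant genes, and the circled genes of the ER stress list lie far up the vertical axis and near 0 on the horizontal one.

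The stricter fits called fewer genes. The control-only fit called 49 of 16103 genes (0.304%), 42 higher and 7 lower, and all 49 were concordant. The arm-weighted fit called 280 of 17289 genes (1.62%), 168 higher and 112 lower, among them 100 of the higher and 54 of the lower concordant genes. The log2 fold changes of the 42 higher genes were between 1.86 and 12.31, and those of the 7 lower genes between 2.23 and 5.45 in size. All 49 were also called by the 12-library fit without day 21 replicate 2. Of the 42, 25 also passed the arm-weighted fit, as did 6 of the 7. Among the 42, 31 had at least 1 count in each of the 4 libraries, and the other 11 had a 0 at day 0. The 7 lower genes were Slc26a7, Ptn, Glt8d2, Cbr2, Ifitm1, Cacna1a and Efna5; Cbr2 and Ifitm1 are named after their values were seen.

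Among the concordant genes with a mean of at least 1 log2 CPM, the 15 with the widest gap upward were led by the matrix gene Tnn. Tnn encodes tenascin-W, a matrix glycoprotein of developing bone (mm10 chromosome 1, 160085029 to 160153580). It was at 293 and 443 CPM in the day 21 libraries, against 1.42 and 1.96 CPM at day 0 (7.75 ± 0.40, adjusted p = 1.44e-05). The groups were far apart, and Tnn passed both stricter fits (control-only adjusted p = 0.000759, arm-weighted 0.0055). Dpep1, a membrane dipeptidase, was at 27.7 and 60.0 CPM at day 21 and 0.154 and 0.151 CPM at day 0 (8.13 ± 0.55, adjusted p = 8.73e-05; control-only 0.00285). Ccbe1, a secreted protein needed for lymphatic vessel growth, was at 72.4 and 39.5 CPM at day 21 and 0.831 and 0.705 CPM at day 0 (6.18 ± 0.34, control-only adjusted p = 0.00201). The smallest log2 CPM difference between a day 21 and a day 0 library was 7.18 for Tnn, 7.02 for Dpep1 and 5.47 for Ccbe1.

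Several other genes at the top of the upward order encode protease inhibitors, carriers and growth factors. The serine protease inhibitor gene Serpina3m was at 36.9 and 28.8 CPM at day 21, against 0.339 and 0.403 CPM at day 0 (6.45 ± 0.34, control-only adjusted p = 0.00108). Its relatives in the Serpina3 family are close copies, so reads may have been split between them. Fabp4, a carrier of fatty acids, was at 37.8 and 53.7 CPM at day 21 and 2.03 and 1.26 CPM at day 0 (4.8 ± 0.37, control-only adjusted p = 0.00846). Serpinb2, an inhibitor of plasminogen activators, was at 25.5 and 28.0 CPM at day 21 and 1.97 and 0.579 CPM at day 0 (4.4 ± 0.50, control-only adjusted p = 0.0398). Dusp2, a phosphatase of mitogen-activated kinases, was at 9.69 and 19.2 CPM at day 21 and 0.739 and 0.554 CPM at day 0 (4.48 ± 0.45, control-only adjusted p = 0.0378). In each of these 4 genes the day 21 libraries were less than 2-fold apart, and all 4 passed all 3 fits. Areg, an epidermal growth factor receptor ligand, was at 21.2 and 56.6 CPM at day 21, against 0.708 and 0.479 CPM at day 0 (6.04 ± 0.95); it passed the arm-weighted fit (adjusted p = 0.0441) and not the control-only fit (0.0843).

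Other genes of the 15, among them Hp and Serpina3n reported below, passed the control-only fit and not the arm-weighted one. The small heat shock gene Hspb7 was at 21.2 and 133 CPM at day 21, against 0 and 0.202 CPM at day 0 (control-only adjusted p = 0.0486, arm-weighted 0.465). The immune receptor gene Tarm1 was at 29.7 and 134 CPM at day 21 and 0.862 and 0.327 CPM at day 0 (control-only 0.0378, arm-weighted 0.172). Stab1, a scavenger receptor, was at 28.6 and 17.2 CPM at day 21 and 0.554 and 0.252 CPM at day 0 (control-only 0.0378, arm-weighted 0.0768). In Hspb7 and Tarm1 the stressed library was the higher one, and in Stab1 the lower one. Unlike these 3, Hspa1a, an inducible heat shock protein whose reads may be shared with its copy Hspa1b, was at 21.2 and 355 CPM at day 21 and 0.493 and 1.44 CPM at day 0, and passed neither stricter fit (adjusted p = 0.0774 and 0.476). Of the 15, 13 passed the control-only fit, 9 the arm-weighted fit, and 15 the 12-library fit without day 21 replicate 2.

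Outside the 15, a further group of genes called in all 3 fits is named after values were seen. Ccn2, a matricellular growth factor gene, was at 424 and 278 CPM at day 21, against 36.3 and 42.8 CPM at day 0 (3.15 ± 0.37). The growth factor gene Ereg, another ligand of the epidermal growth factor receptor, was at 176 and 554 CPM at day 21 and 16.6 and 19.2 CPM at day 0 (4.35 ± 0.48). Errfi1, a feedback inhibitor of the same receptor, was at 328 and 675 CPM at day 21 and 49.7 and 37.6 CPM at day 0 (3.52 ± 0.35). Ereg and Errfi1 were higher in the stressed replicate, Ccn2 in the other. Deptor, an inhibitor of mTOR kinase, was at 93.8 and 71.6 CPM at day 21, against 22.5 and 16.9 CPM at day 0 (2.07 ± 0.19).

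The 15 genes with the widest gap downward included secreted signalling proteins, channels and transporters. Slc26a7, an anion transporter (mm10 chromosome 4, 14502430 to 14621805), was at 0.408 and 1.41 CPM at day 21, against 22.5 and 54.8 CPM at day 0 (-5.45 ± 0.77, adjusted p = 0.00399; control-only 0.0417, arm-weighted 0.0539). Ptn, the heparin-binding growth factor pleiotrophin, was at 39.9 and 17.8 CPM at day 21 and 259 and 333 CPM at day 0 (-3.36 ± 0.34, control-only adjusted p = 0.0343). The calcium channel subunit gene Cacna1a was at 17.8 and 19.7 CPM at day 21 and 98.7 and 90.6 CPM at day 0 (-2.34 ± 0.17, control-only 0.0266). The replicates of Cacna1a lay close together within each day, and its days far apart. Efna5, a ligand of Eph receptors, was at 7.0 and 7.44 CPM at day 21, against 30.6 and 37.2 CPM at day 0 (-2.23 ± 0.21, control-only 0.0398), and Glt8d2, a glycosyltransferase family member, at 3.71 and 2.41 CPM at day 21 and 21.1 and 31.3 CPM at day 0 (-3.09 ± 0.29, control-only 0.0378). Of the 15, 5 passed the control-only fit, 9 the arm-weighted fit, and 12 the 12-library fit without day 21 replicate 2.

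Other genes of the downward group passed the arm-weighted fit alone among the stricter ones. The circadian transcription factor gene Dbp was at 1.49 and 1.70 CPM at day 21, against 12.4 and 18.1 CPM at day 0 (-3.26 ± 0.48, arm-weighted adjusted p = 0.0312). The zinc finger transcription factor gene Sp8 was at 0.904 and 1.33 CPM at day 21 and 9.45 and 11.5 CPM at day 0 (arm-weighted 0.0188), and Atp1b1, a sodium pump subunit, at 1.55 and 1.70 CPM at day 21 and 10.7 and 20.2 CPM at day 0 (0.031). Cyp3a13, a cytochrome P450, was at 2.54 and 2.85 CPM at day 21 and 14.6 and 16.8 CPM at day 0 (0.0268). All 4 had a narrow range within day 21. Ccn3, a matricellular relative of Ccn2, was at 89.7 and 43.2 CPM at day 21, against 382 and 1962 CPM at day 0, where the 2 libraries lay far apart; it passed neither stricter fit (adjusted p = 0.0965 and 0.0584) and was not called without day 21 replicate 2 (0.0915). In the IFN libraries of day 0, Ccn3 was at 1857 and 1919 CPM. The log2 fold change of Ccn3 was -4.14 in the 12-library fit, -3.70 without day 21 replicate 2 and -4.89 without day 0 replicate 1. The receptor Sort1 (-2.45 ± 0.43), Galnt18, a family member of the enzymes that start O-linked glycans (-2.90 ± 0.43), and the PDZ domain gene Pdzd2 (-2.74 ± 0.38) fell in the 12-library fit and passed neither stricter fit.

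**Figure D2:**
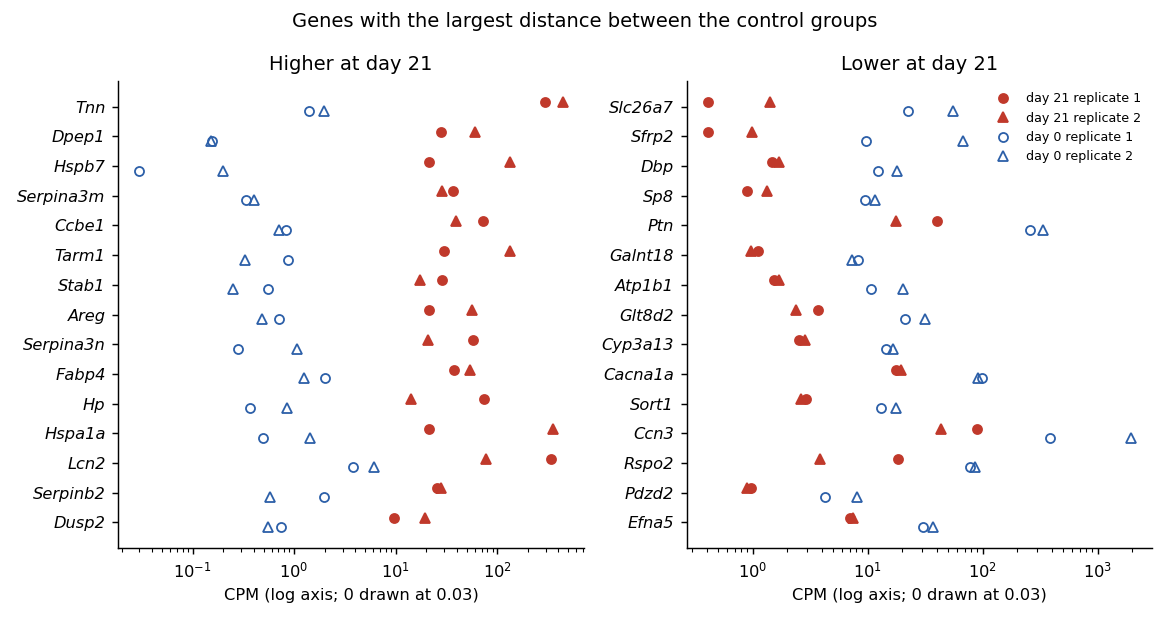
CPM of the 15 concordant genes with the widest gap upward (left) and downward (right), on a log axis; red filled symbols are day 21 and blue open symbols day 0, with circles for replicate 1 and triangles for replicate 2. No day 21 symbol overlaps the day 0 symbols of its gene, which the choice of concordant genes requires. The genes run from Tnn at 293 and 443 CPM at day 21 to Efna5 at 7.0 and 7.44 CPM.

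Bone matrix genes moved unevenly. Of 28 matrix genes tested, 7 rose (Ibsp, Spp1, Fmod, Tnn, Tnc, Thbs1 and Smoc1) and 1 fell (Lum), with a median log2 fold change of 0.53 beside 0.01 over all genes. The control-only fit called 2 of them higher and the arm-weighted fit 3. Ibsp, bone sialoprotein, which nucleates mineral (mm10 chromosome 5, 104299171 to 104311469), had 810 and 376 counts at day 21 and 0 in both day 0 libraries. With day 0 set to a floor of 3 counts over the group, it was at least 415-fold higher per total count, without TMM scaling. Its level was 23.6 and 13.9 CPM at day 21 (control-only adjusted p = 0.00773, arm-weighted 0.231). Spp1, osteopontin, was at 6479 and 7483 CPM at day 21, against 1975 and 2347 CPM at day 0 (1.69 ± 0.29, adjusted p = 0.0102), and passed the arm-weighted fit (0.00507) and not the control-only fit (0.173). Lum, the collagen-binding proteoglycan lumican, had 0 counts in both day 21 libraries and 14 and 338 at day 0, at least 112-fold lower by the same floor and total counts. Lum was at 0.431 and 8.51 CPM at control day 0, and at 9.10 and 8.14 CPM in the IFN libraries of day 0. It passed neither stricter fit (control-only 0.176, arm-weighted 0.323) and was not called without day 21 replicate 2 (0.126). Fmod, fibromodulin, was at 39.2 and 244 CPM at day 21 and 2.43 and 10.7 CPM at day 0, and passed neither stricter fit (0.130 and 0.280). Spp1, Fmod, Tnc, Thbs1 and Smoc1 are named after their values were seen.

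The other 20 matrix genes did not pass. Col1a1, the main collagen chain of bone (mm10 chromosome 11, 94936224 to 94953042), was at 9729 and 5107 CPM at day 21, against 2574 and 5956 CPM at day 0, and averaged 7418 ± 3269 CPM at day 21 and 4265 ± 2391 CPM at day 0 (SD, n = 2 each; 0.80 ± 0.41, adjusted p = 0.242), and the groups overlapped. Dcn, the proteoglycan decorin, was at 94.9 and 76.0 CPM at day 21, against 109 and 491 CPM at day 0 (-1.81 ± 0.50, adjusted p = 0.0547, chosen after seeing it). In the IFN libraries of day 0, Dcn was at 476 and 488 CPM. The log2 fold change of Dcn was -1.65 without day 21 replicate 2 and -2.53 without day 0 replicate 1. Osteocalcin, Bglap, was at 0.292 and 6.89 CPM at day 21, against 0.431 and 0.655 CPM at day 0 (2.70 ± 1.02, adjusted p = 0.130). Its high value was in the stressed library alone, and without that library its log2 fold change was -0.89. Bglap has close copies, so its counts are uncertain.

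Enzymes that build and cut the matrix included a gene called in all 3 fits. Of 35 collagen processing and remodelling genes, 5 rose (Mmp13, Pcolce2, Lox, Loxl4 and Adamts14) and 2 fell (P4ha3 and Timp2), with a median of 0.22. The arm-weighted fit called 3 higher and 2 lower, and the control-only fit 1 higher. Mmp13, the main collagenase of bone and cartilage (mm10 chromosome 9, 7272514 to 7283331), was at 89.9 and 122 CPM at day 21, against 6.25 and 9.98 CPM at day 0 (3.70 ± 0.33, adjusted p = 0.000547). Both day 21 libraries were high, and Mmp13 passed both stricter fits (control-only 0.0129, arm-weighted 0.0234). Pcolce2, an enhancer of collagen processing, was at 20.0 and 25.3 CPM at day 21 and 5.05 and 3.75 CPM at day 0 (2.36 ± 0.26, arm-weighted 0.0108, control-only 0.0509). P4ha3, a collagen prolyl hydroxylase subunit, was at 59.3 and 41.8 CPM at day 21 and 119 and 155 CPM at day 0 (-1.44 ± 0.23, arm-weighted 0.0173, control-only 0.119). Lox, the crosslinking enzyme lysyl oxidase, is named after its values were seen, at 2431 and 1596 CPM at day 21 and 804 and 623 CPM at day 0 (1.5 ± 0.31). Without day 21 replicate 2, Mmp13, Pcolce2 and P4ha3 stayed called (adjusted p = 0.000718, 0.00121 and 0.0147).

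The Mmp13 promoter is shown because Mmp13 is a classical target of Runx2 and of AP-1 factors in osteoblasts. Capitals mark the letters of the Runx motif, TGTGGT, and of the AP-1 motif, TGAGTCA, which both occur on the strand opposite to the printed one, 118 to 113 and 35 to 29 bases before RefSeq's annotated start. The sequence is from RefSeq (GRCm38.p6), chr9:7272264-7272563, plus strand, 5′ to 3′.
Mmp13 promoter: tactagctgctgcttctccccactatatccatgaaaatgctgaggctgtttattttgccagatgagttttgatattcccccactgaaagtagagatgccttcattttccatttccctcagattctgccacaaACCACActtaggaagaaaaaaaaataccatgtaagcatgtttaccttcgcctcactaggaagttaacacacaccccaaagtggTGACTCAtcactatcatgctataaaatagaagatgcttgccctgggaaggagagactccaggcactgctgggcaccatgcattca
With both strands searched, 16.8% of the 32851 windows held the Runx letters and 5.2% the AP-1 letters, and the motifs share no bases here.

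Some mineralization genes were higher in the 12-library fit and in neither stricter fit. Of 14 tested, 4 rose and none fell, with a median of 0.87; the arm-weighted and control-only fits called 0 of them, with 6 at an unadjusted p below 0.05 in each, and DESeq2 called 6 higher. Alpl, tissue-nonspecific alkaline phosphatase (mm10 chromosome 4, 137741733 to 137796384), was at 8.96 and 30.0 CPM at day 21, against 0.554 and 2.95 CPM at day 0 (3.45 ± 0.73, adjusted p = 0.0231). Its groups did not overlap, and the higher day 21 value was that of the stressed library. Without that library its adjusted p was 0.0867, and its call survived 10 of 12 leave-one-out fits. The carbonic anhydrase gene Car12 was at 13.3 and 34.7 CPM at day 21 and 2.65 and 5.24 CPM at day 0 (2.60 ± 0.57; 0.108 without day 21 replicate 2). Nt5e, an ectonucleotidase, was at 23.0 and 11.4 CPM at day 21 and 1.02 and 4.69 CPM at day 0 (2.58 ± 0.67; 0.0726 without it). The phosphate transporter Slc20a1, named after its values were seen, was at 134 and 603 CPM at day 21 and 65.1 and 52.4 CPM at day 0, and stayed called without that library (0.00267).

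Lineage transcription factors showed few calls. Of 27 tested, 1 rose and 2 fell, near the share over all genes, with a median of 0.21. The arm-weighted fit called 1 lower. The control-only fit called 0 of 26 tested, with 3 higher and 2 lower at an unadjusted p below 0.05. Runx2 was at 71.9 and 93.1 CPM at day 21, against 99.8 and 108 CPM at day 0 (-0.33 ± 0.21, adjusted p = 0.348). Sp7, osterix, was at 15.7 and 8.85 CPM at day 21 and 3.91 and 6.68 CPM at day 0 (1.21 ± 0.36, adjusted p = 0.0723). Neither passed, although Sp7 did without day 21 replicate 2 (adjusted p = 0.028). Sox9, the master factor of cartilage, was at 173 and 152 CPM at day 21 and 174 and 106 CPM at day 0 (0.21 ± 0.22, adjusted p = 0.574), with overlapping groups. Tcf7l2, an effector of Wnt signalling, fell to 22.3 and 20.6 CPM at day 21, against 59.4 and 52.7 CPM at day 0 (-1.39 ± 0.17, adjusted p = 0.00213, arm-weighted 0.0147, control-only 0.105). Dlx5, an osteoblast homeobox gene, was at 11.7 and 12.6 CPM at day 21 and 38.1 and 18.8 CPM at day 0 (-1.23 ± 0.30) and Foxc2, a forkhead factor, at 27.1 and 46.9 CPM at day 21 and 15.7 and 7.15 CPM at day 0 (1.70 ± 0.43); neither was called without day 21 replicate 2 (adjusted p = 0.0747 and 0.186). Among 9 osteocyte genes tested, the chemokine receptor gene Ackr3 rose (2.16 ± 0.40, arm-weighted 0.0206, control-only 0.129). Its log2 fold change was 1.68 without day 21 replicate 2. The homeobox gene Irx5 fell (-1.18 ± 0.26, arm-weighted 0.0765, control-only 0.207). The late osteocyte genes Sost, Mepe and Fgf23 had too few counts to test. Dmp1, another osteocyte gene, was at 56.1 and 6.11 CPM at day 21, against 26.2 and 86.5 CPM at day 0. It did not pass (-0.85 ± 1.01, adjusted p = 0.619), its groups overlapped, and it is named after its values were seen.

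Glucocorticoid target genes were the list with the highest share of calls. Of 14 tested, 12 rose and none fell, with a median of 2.40; Cebpd and Mt2 did not pass. The arm-weighted fit called 9 higher, the control-only fit 4 and the 12-library fit without day 21 replicate 2 called 12, with a median of 1.73 there. Tsc22d3, the leucine zipper protein GILZ (mm10 chromosome X, 140539528 to 140600659), was at 497 and 382 CPM at day 21, against 34.1 and 41.6 CPM at day 0 (3.54 ± 0.24, adjusted p = 8.73e-05). Fkbp5, a co-chaperone that restrains the glucocorticoid receptor (mm10 chromosome 17, 28399094 to 28517527), was at 520.5 and 293 CPM at day 21 and 27.5 and 33.5 CPM at day 0 (3.74 ± 0.30, adjusted p = 0.000261). The transcriptional repressor Zbtb16 was at 26.5 and 31.4 CPM at day 21, against 0 and 0.101 CPM at day 0 (8.95 ± 0.69, adjusted p = 0.000188). No libraries of the 2 days overlapped, with smallest log2 differences of 3.20, 3.13 and 7.37, and all 3 genes passed the control-only fit (adjusted p = 0.0129, 0.0199 and 0.0117). Zbtb16 did not pass the arm-weighted fit (0.120).

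The other called members, named after their values were seen, covered metabolism and signalling. The serum and glucocorticoid kinase Sgk1 was at 431 and 1048 CPM at day 21, against 106 and 105 CPM at day 0 (2.81 ± 0.34). Pdk4, a brake on pyruvate oxidation, was at 337 and 1008 CPM at day 21 and 124 and 146 CPM at day 0 (2.32 ± 0.39), and Glul, glutamine synthetase, at 196 and 492 CPM at day 21 and 64.2 and 59.6 CPM at day 0 (2.48 ± 0.34). In these 3 genes the stressed library was more than 2-fold above the other day 21 library. The lipase inhibitor Angptl4 was at 17.6 and 12.4 CPM at day 21 and 0.369 and 1.61 CPM at day 0 (3.90 ± 0.72), and the metallothionein Mt1 at 778 and 1070.4 CPM at day 21 and 306 and 148 CPM at day 0 (2.03 ± 0.32). At days 0, 14 and 21 the 2 control libraries of Fkbp5 were at 27.5 and 33.5, at 1027 and 692, and at 520.5 and 293 CPM. Those of Tsc22d3 were at 34.1 and 41.6, at 1074 and 731, and at 497 and 382 CPM, so both genes were already high at day 14.

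Acute phase and complement genes moved in both directions. Of 17 tested, 7 rose and 2 fell, with a median of 1.84; the control-only fit called 5 higher, and the arm-weighted fit 3 higher and 2 lower. Lcn2, lipocalin 2, which binds bacterial iron carriers (mm10 chromosome 2, 32384633 to 32388252), was at 340.2 and 77.4 CPM at day 21, against 3.76 and 6.07 CPM at day 0 (5.40 ± 0.60, adjusted p = 0.00125, control-only 0.0378). Hp, haptoglobin, a haemoglobin scavenger, was at 74.1 and 14.2 CPM at day 21 and 0.369 and 0.856 CPM at day 0 (6.14 ± 0.78, control-only 0.0398, arm-weighted 0.238). Serpina3n was at 57.4 and 20.8 CPM at day 21 and 0.277 and 1.06 CPM at day 0 (5.83 ± 0.65, control-only 0.0337, arm-weighted 0.106). In all 3 the stressed library was the lower of the day 21 pair, and both day 21 libraries exceeded both of day 0. Orm1, orosomucoid 1, had 451 counts over the day 21 libraries and 2 over those of day 0. Its ratio per total count, without TMM scaling, was 236.7 (95% interval 65.1 to 1960.5, counting error only). Orm1 passed the control-only fit (adjusted p = 0.0378) and not the arm-weighted fit (0.127). The interleukin 1 receptor antagonist Il1rn was at 60.6 and 39.8 CPM at day 21, against 1.14 and 3.55 CPM at day 0 (4.4 ± 0.55), and passed both stricter fits. The complement gene C4b rose (2.35 ± 0.52; control-only 0.187, arm-weighted 0.0785), while C1s1 (-1.52 ± 0.25) and C1ra (-1.43 ± 0.26), proteases that start the classical pathway, fell; these genes and Il1rn are named after their values were seen.

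**Figure D3:**
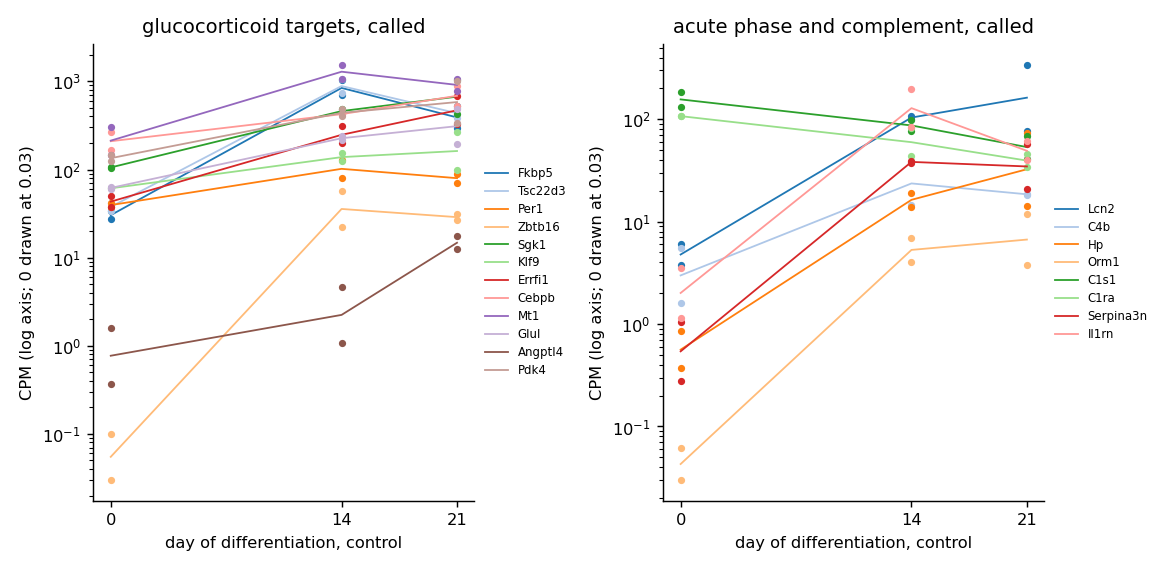
CPM on a log axis of called glucocorticoid targets (left) and of the called acute phase and complement genes reported here (right) in the control libraries at days 0, 14 and 21; dots are the 2 libraries of each day, lines join their geometric means, and 0 is drawn at 0.03. Tsc22d3 and Fkbp5 lie higher at day 14 than at day 21, and C1s1 and C1ra lie lowest at day 21.

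Some interferon-stimulated genes were higher at day 21 in these control cells, whose labels name no IFN. Of 34 tested, 12 rose and 2 fell, with a median of 0.97, while the summed level of the list was 1881 and 1854 CPM at day 21, against 2231 and 2220 CPM at day 0. The stricter fits called none of them higher: the arm-weighted fit called 1 lower, with 13 higher and 4 lower at an unadjusted p below 0.05, and the control-only fit called 0, with 16 higher and 3 lower. DESeq2 called 15 higher and 4 lower. Without day 21 replicate 2, 6 of the list were called higher and 1 lower. Oas3, an enzyme that senses double-stranded RNA (mm10 chromosome 5, 120753098 to 120777661), was at 14.5 and 15.1 CPM at day 21, against 0.0616 and 0.403 CPM at day 0 (5.90 ± 0.71, adjusted p = 0.0018; control-only 0.0529, arm-weighted 0.0785). Its relative Oas2 was at 17.1 and 35.4 CPM at day 21 and 0.246 and 1.51 CPM at day 0 (4.85 ± 1.17, 0.220 without day 21 replicate 2), and Ifi44 at 12.8 and 33.2 CPM at day 21 and 0.462 and 1.56 CPM at day 0 (4.47 ± 0.92, 0.158 without it). Irf7, the factor that amplifies interferon responses, was at 13.7 and 10.7 CPM at day 21, against 2.83 and 2.70 CPM at day 0 (2.14 ± 0.35, adjusted p = 0.0084; 0.0104 without day 21 replicate 2). The ubiquitin-like modifier Isg15 was at 17.3 and 22.6 CPM at day 21 and 1.66 and 6.83 CPM at day 0 (2.22 ± 0.58, adjusted p = 0.0495; 0.212 without it). Irf7 and Isg15 are named after their values were seen. Ifit2 (-1.27 ± 0.33; control-only 0.269, arm-weighted 0.0721) and Ifitm3 (-1.24 ± 0.25; control-only 0.187, arm-weighted 0.029) were the 2 that fell. Ifitm1, outside this list, was at 28.0 and 18.7 CPM at day 21, against 95.1 and 143 CPM at day 0, and fell in all 3 fits (control-only 0.0384). The Oas genes are close relatives, and reads may have been split between them.

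The Oas3 promoter is shown as that of the interferon-stimulated gene with the widest gap. Capitals mark the core of the interferon-stimulated response element (GAAA, 2 bases of any kind, then GAAA), 75 to 66 bases before RefSeq's annotated start, on the printed strand. The sequence is from RefSeq (GRCm38.p6), chr5:120777610-120777909, minus strand, 5′ to 3′.
Oas3 promoter: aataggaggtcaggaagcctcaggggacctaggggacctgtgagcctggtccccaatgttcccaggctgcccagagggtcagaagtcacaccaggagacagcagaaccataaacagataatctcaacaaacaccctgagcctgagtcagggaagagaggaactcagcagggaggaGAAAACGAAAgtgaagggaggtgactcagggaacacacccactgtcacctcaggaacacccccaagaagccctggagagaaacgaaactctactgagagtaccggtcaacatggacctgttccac
With both strands searched, 3.44% of the 32851 windows held these letters, and 17 of the 28 interferon-stimulated genes with a window did. The windows of Oas3 and Hspa5 also hold the AP-1 letters, left in lower case.

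Wnt pathway genes went both ways. Of 25 tested, 4 rose (Wif1, Wnt11, Axin2 and Lrp5) and 4 fell (Sfrp2, Rspo2, Dkk3 and Fzd4), with a median of -0.19. The control-only fit called 1 higher and the arm-weighted fit 2 lower. Wif1, a secreted Wnt inhibitor, was at 6.04 and 6.18 CPM at day 21, against 0 and 0.101 CPM at day 0 (6.71 ± 0.70, adjusted p = 0.00142; control-only 0.0298, arm-weighted 0.200). The ligand Wnt11 was at 2.25 and 9.77 CPM at day 21 and 0.246 and 0.101 CPM at day 0 (5.11 ± 1.11; 0.0802 without day 21 replicate 2). Sfrp2, another secreted Wnt modulator, was at 0.408 and 1.0 CPM at day 21, against 9.73 and 67.5 CPM at day 0 (-5.81 ± 0.98; 0.0851 without it). Rspo2, which strengthens Wnt signals, was at 18.3 and 3.85 CPM at day 21 and 78.1 and 86.0 CPM at day 0 (-2.88 ± 0.63, arm-weighted 0.0387, control-only 0.160). Its log2 fold change was -2.16 without day 21 replicate 2. Of these, Wif1 had narrow ranges in both groups, and day 0 values of Sfrp2 differed several-fold.

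Among 28 BMP and TGF-beta genes, 4 rose and 1 fell, with a median of -0.09. The arm-weighted fit called 2 higher, and the control-only fit 1 higher of 26 tested. Smad7, an intracellular inhibitor of TGF-beta signalling, was at 69.7 and 95.5 CPM at day 21 and 29.1 and 24.1 CPM at day 0 (1.64 ± 0.26, arm-weighted 0.0115, control-only 0.119). Its days did not overlap, and it stayed called without day 21 replicate 2 (adjusted p = 0.0153). Of 8 Notch genes, the ligand Jag1, at 90.1 and 193 CPM at day 21 and 61.1 and 66.9 CPM at day 0 (1.14 ± 0.28), and the receptor Notch4 (2.47 ± 0.58) rose. The higher day 21 value of Jag1 was that of the stressed library, without which its adjusted p was 0.0654, and its call survived 1 of 12 leave-one-out fits. In the same list the ligand Dll1 fell to 3.59 and 1.41 CPM at day 21, against 17.6 and 12.4 CPM at day 0 (-2.57 ± 0.42). The arm-weighted and control-only fits called 0 of the 8, with 3 at an unadjusted p below 0.05 in each, and DESeq2 called the same numbers as the 12-library fit, 2 higher and 1 lower. Of 9 insulin-like growth factor genes, the binding protein Igfbp7 rose (0.95 ± 0.23, control-only 0.261, arm-weighted 0.0982), a call that survived 2 of 12 leave-one-out fits. The receptor substrate Irs1 fell to 98.1 and 84.0 CPM at day 21, against 200.2 and 238 CPM at day 0 (-1.27 ± 0.16, arm-weighted 0.0102, control-only 0.109).

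Stress genes were high in one of the day 21 libraries. Of 31 ER stress genes tested, 10 rose and none fell in the 12-library fit, with a median of 2.08, and none was concordant. The control-only fit called 0 of them, with 24 higher at an unadjusted p below 0.05. Without day 21 replicate 2 the median was 0.21 and 2 were higher and 2 lower. Ern1, the ER stress sensor IRE1, was the only member that passed the arm-weighted fit (0.0123), at 161 and 203 CPM at day 21, against 89.2 and 57.3 CPM at day 0 (1.31 ± 0.21; 0.0127 without day 21 replicate 2). The disulfide isomerase Pdia4 was at 231 and 4814 CPM at day 21 and 149.7 and 172 CPM at day 0 (3.97 ± 0.96; 0.0661 without it), and Sdf2l1, an ER chaperone partner, at 14.4 and 262 CPM at day 21 and 10.4 and 14.8 CPM at day 0, which did not pass (adjusted p = 0.05003). The call of Hspa5 (4.21 ± 1.04, adjusted p = 0.0409) and that of Atf3 each survived 1 of 12 leave-one-out fits. Ddit3, the factor CHOP, did not pass (93.9 and 1458 CPM at day 21, 129 and 62.6 CPM at day 0; named after its values were seen). Apart from Ern1, replicate 1 of day 21 lay much nearer to day 0 than replicate 2 in these genes.

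Heat shock and oxidative defence genes were partly of the same kind. Of 16 heat shock genes 5 rose, with a median of 1.52 that was 0.06 without day 21 replicate 2. Hspb1, a small heat shock protein, was at 88.4 and 1079.8 CPM at day 21 and 18.7 and 32.2 CPM at day 0 (4.52 ± 0.86; 0.00363 without that library), and Hspa1b at 135 and 6479 CPM at day 21 and 56.6 and 73.5 CPM at day 0 (5.67 ± 1.24; 0.00676 without it). The stricter fits called 0 of the 16, with 4 (arm-weighted) and 10 (control-only) at an unadjusted p below 0.05, and DESeq2 called 10. Of 20 oxidative defence genes 6 rose, and 4 did so in the arm-weighted fit. The control-only fit called 0 of them, with 11 higher at an unadjusted p below 0.05. The list median of 1.08 was 0.37 without day 21 replicate 2. The cystine transporter Slc7a11 was at 162 and 528 CPM at day 21, against 61.3 and 40.7 CPM at day 0 (2.76 ± 0.46, arm-weighted 0.0294, control-only 0.105). Gclc, which starts glutathione synthesis, was at 1017 and 1702 CPM at day 21 and 497 and 181 CPM at day 0 (2.00 ± 0.41, arm-weighted 0.0206; 0.102 without day 21 replicate 2), and the peroxidase Prdx1 at 715 and 1171 CPM at day 21 and 472 and 467 CPM at day 0 (1.01 ± 0.22, arm-weighted 0.0435). The haem-degrading enzyme Hmox1 did not pass (277 and 8577 CPM at day 21, 513 and 119 CPM at day 0).

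Some inflammatory and osteoclast-regulating genes were called, in larger shares than the 6.44% over all genes. Of 19 inflammatory genes 1 rose (Ptgs2, named after its values were seen) and 3 fell. The arm-weighted fit called 1 lower, and the control-only fit 0, with 2 higher and 3 lower at an unadjusted p below 0.05. The adhesion molecule Vcam1 fell to 95.8 and 72.8 CPM at day 21, against 266 and 326 CPM at day 0 (-1.81 ± 0.27, arm-weighted 0.00488, control-only 0.104). The chemokine Cxcl12 fell to 144 and 94.4 CPM at day 21, against 339.7 and 448 CPM at day 0 (-1.73 ± 0.44, control-only 0.244, arm-weighted 0.118). Its log2 fold change was -1.45 without day 21 replicate 2. The adhesion molecule Icam1 also fell (-2.25 ± 0.56; 0.114 without it). Of 11 osteoclast regulators, 3 rose: Mmp13 above, the macrophage growth factor Il34, at 34.9 and 28.9 CPM at day 21 and 13.7 and 11.4 CPM at day 0 (1.35 ± 0.23, arm-weighted 0.0441), and the chemokine Ccl9 (1.40 ± 0.31; 0.0547 without day 21 replicate 2). Of these regulators, the arm-weighted fit called 2 higher and the control-only fit 1, which was Mmp13. Tnfsf11, the osteoclast inducer RANKL, had too few counts to test. Of 21 p53 and apoptosis genes, the inflammatory caspase Casp4 (1.64 ± 0.28, arm-weighted 0.0282, control-only 0.130) and the survival gene Bcl2l1 (0.87 ± 0.18, control-only 0.237, arm-weighted 0.0721) rose.

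Metabolic, ribosomal, immediate early and cell cycle lists had between 0 and 2 calls each. Of 27 glycolysis and hypoxia genes the angiogenic factor Vegfa rose, at 568 and 1059.8 CPM at day 21 and 298 and 273 CPM at day 0 (1.51 ± 0.34, arm-weighted 0.043; 0.0956 without day 21 replicate 2), with a list median of 0.72. Of the glycolysis and hypoxia genes, 9 were higher and 0 lower at an unadjusted p below 0.05, beside 4544 of all 17289 genes either way. DESeq2 called 8 of this list higher, and 2590 genes over all. Of 10 fatty acid synthesis genes the elongase Elovl6 (-2.32 ± 0.51, control-only 0.178, arm-weighted 0.143) and the desaturase Fads2 (-1.78 ± 0.30, arm-weighted 0.0228, control-only 0.119) fell. The log2 fold change of Elovl6 was -2.06 without day 21 replicate 2. Of 30 ribosomal protein genes 1 rose (Rps14, 0.97 ± 0.25, arm-weighted 0.0925), with a median of 0.54. Without day 21 replicate 2 the log2 fold change of Rps14 was 0.55 and the list median 0.22. Of these 30, 15 were higher and 0 lower at an unadjusted p below 0.05, and DESeq2 called 6 higher. The control-only fit called 0, with 1 higher at an unadjusted p below 0.05. None of 35 cell cycle genes was called by edgeR, with 12 lower at an unadjusted p below 0.05 and 4 lower by DESeq2; the median was -0.71, and -0.31 without day 21 replicate 2. None of 18 immediate early genes was called, with 2 higher at an unadjusted p below 0.05 and 2 by DESeq2, and Fos and Egr1 overlapped between the days (70.9 and 2287 CPM at day 21 and 98.3 and 538 CPM at day 0 for Egr1). None of 28 oxidative phosphorylation genes was called, with 2 higher and 3 lower unadjusted and 0 by DESeq2. None of 21 cholesterol synthesis genes was called either, with 2 higher and 1 lower unadjusted and 0 by DESeq2.

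Markers of other cell types had between 0 and 3 calls on each of 6 lists, to be read beside the 6.44% called over all genes. Among adipocyte markers, Pparg, Adipoq, Plin1, Cidec, Retn and Lep had too few counts to test, and Fabp4 was the only one called of 6 tested. The 12 genes summed to 87.1 and 116 CPM at day 21, against 66.1 and 75.2 CPM at day 0. Of 9 chondrocyte markers tested, the cartilage collagen gene Col2a1 rose to 47.0 and 18.8 CPM at day 21, against 6.34 and 7.91 CPM at day 0 (2.21 ± 0.38, control-only adjusted p = 0.111), as did the transcription factor gene Sox5 (1.14 ± 0.25; control-only 0.270, arm-weighted 0.193), while Acan, Matn1 and Hapln1 were too low to test. The 15 genes summed to 239 and 191 CPM at day 21, against 189 and 125 CPM at day 0. Of 11 muscle and contractile genes tested, Des (1.17 ± 0.24, control-only 0.247, arm-weighted 0.257) and Tnnt2 (4.69 ± 0.95, control-only 0.132, arm-weighted 0.297) rose. The smooth muscle gene Lmod1 fell to 26.2 and 30.2 CPM at day 21, against 77.0 and 66.8 CPM at day 0 (-1.35 ± 0.22, arm-weighted 0.0294, control-only 0.129). The 16 genes summed to 1225 and 3037 CPM at day 21, against 4387 and 4622 CPM at day 0; without day 21 replicate 2, 6 were lower. Of 6 macrophage and osteoclast markers tested, Lyz2 fell (-1.90 ± 0.39; control-only 0.176, arm-weighted 0.0978), and Ptprc, Adgre1, Itgam and Acp5 were too low to test. The 14 genes summed to 491 and 125 CPM at day 21, against 419 and 321 CPM at day 0. Of 14 fibroblast and tendon markers tested, Pdgfrb (-0.71 ± 0.17; control-only 0.344, arm-weighted 0.0925) and Cd34 (-1.16 ± 0.29; control-only 0.279, arm-weighted 0.043, 0.103 without day 21 replicate 2) fell, with calls that survived 4 and 3 of 12 leave-one-out fits, and the 17 genes summed to 9370 and 9117 CPM at day 21, against 6295 and 8538 CPM at day 0. None of 5 endothelial and epithelial markers was called, with 1 lower unadjusted and 1 lower by DESeq2. These 12 genes summed to 33.1 and 5.55 CPM at day 21, against 24.1 and 14.9 CPM at day 0. The part of other cell types in the results above was not tested.

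Calls by stricter fit were few across these lists. The control-only fit called at least 1 gene in 8 of the 31 lists; in the other 23 lists, 412 different genes were tested by it and 117 had an unadjusted p below 0.05. The arm-weighted fit called at least 1 gene in 20 lists.

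**Figure D4:**
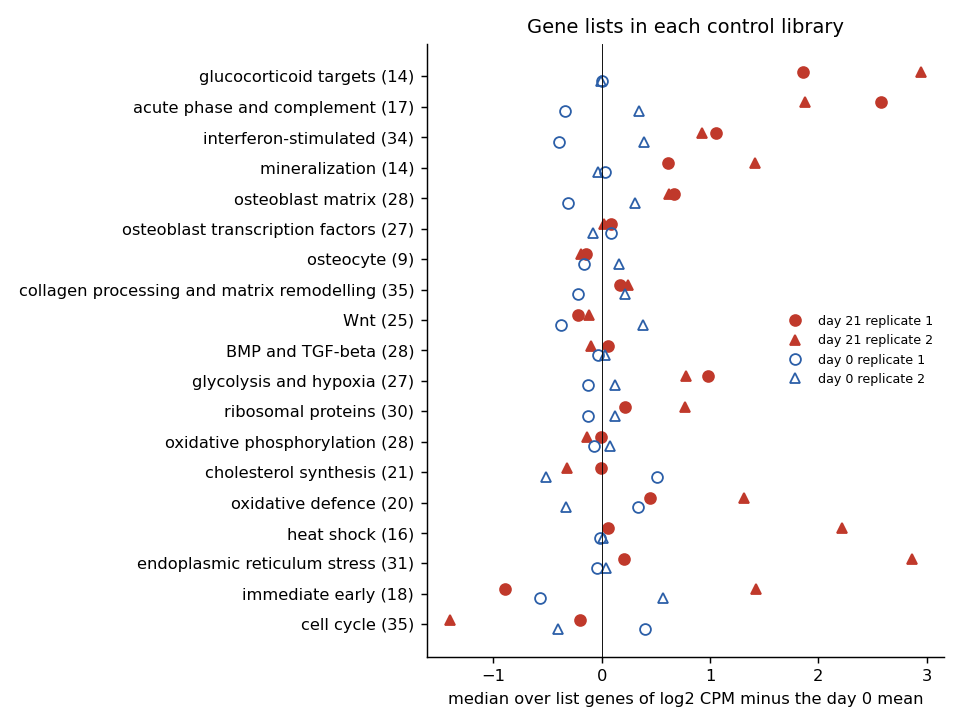
For each gene list (number of genes tested in brackets), the median of log2 CPM minus the mean of day 0 is shown per control library; red filled symbols are day 21 and blue open symbols day 0, with circles for replicate 1 and triangles for replicate 2. The day 21 libraries lie together and above day 0 for glucocorticoid targets (1.86 and 2.95), and far apart for ER stress genes (0.21 and 2.86).

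The same days were compared in the IFN arm, whose libraries are not shared with the control arm but share its estimate of spread. There, 1017 genes rose (5.88%) and 745 fell (4.31%). Of the 358 concordant higher genes of the control arm, 245 rose in the IFN arm, which is 68.4% of them and 24.1% of the 1017. Of the 168 lower genes, 111 fell, 66.1% of them and 14.9% of the 745. The direction was the same for 353 of the 358 and 160 of the 168. Over all tested genes, 50.7% had a positive change in the IFN arm. Of the genes called by the control-only fit, all 42 higher and 6 of the 7 lower were called the same way in the IFN arm; the exception was Ifitm1 (log2 0.05 there). Of the 15 genes with the widest upward gap, 14 rose in the IFN arm too; Hspa1a did not, at 0.769 and 0.980 CPM at day 21 and 1.21 and 1.66 CPM at day 0. All 15 with the widest downward gap fell there.

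The change itself differed between arms for 16 genes (0.0925%), 1 with a higher change in control and 15 with a lower one. The 1 was Tnn, which in the IFN arm was at 24.6 and 13.3 CPM at day 21 and 2.15 and 2.66 CPM at day 0, a log2 change of 2.98 beside 7.75 in control (difference 4.78 ± 0.47, adjusted p = 0.00561). The arm-weighted fit gave a difference of 4.81 for Tnn and did not call it (adjusted p = 0.15). Irf7 changed less in control: in the IFN arm it was at 504 and 546 CPM at day 21 and 5.50 and 3.10 CPM at day 0 (difference -4.79 ± 0.49, adjusted p = 0.00561). For Ifitm1 the difference was -2.40 ± 0.32 (adjusted p = 0.0304). Tnn rose in both arms, and its day 21 libraries were above those of day 0 in each. Col1a1 was at 1147 and 1209.5 CPM at day 21 and 5903 and 6342 CPM at day 0 with IFN, and its difference between arms did not pass (3.18 ± 0.59, adjusted p = 0.104), nor did that of Sox9 (-1.24 ± 0.32, adjusted p = 0.323).

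**Figure D5:**
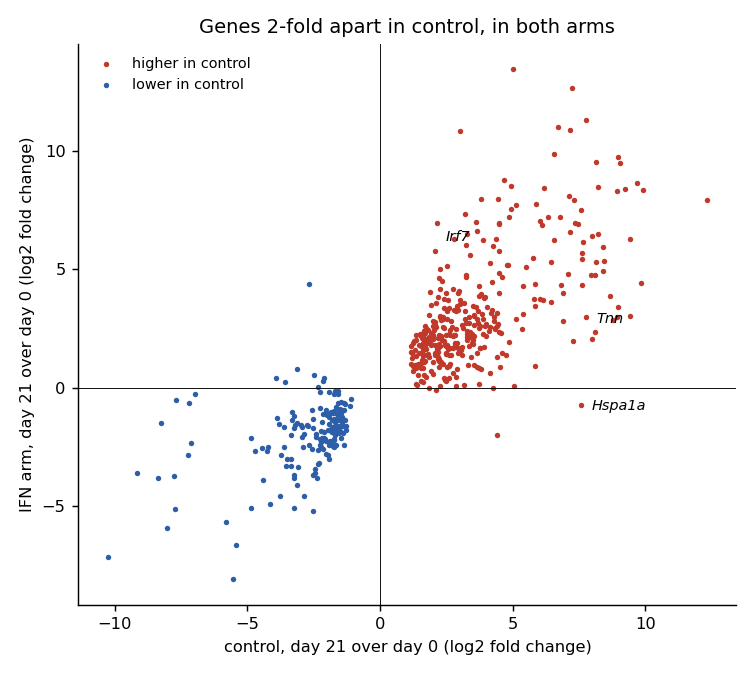
Log2 fold change of day 21 over day 0 in the control arm (horizontal) and in the IFN arm (vertical) for the 526 concordant genes, red for higher and blue for lower in control. Most lie in the quadrants of shared direction (353 of 358 and 160 of 168); Tnn lies at 7.75 and 2.98, and Hspa1a below 0 in the IFN arm.

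The day 21 libraries went to opposite sides of day 0 for many genes. Replicate 2 was above both day 0 libraries and replicate 1 below both for 1297 genes, and the reverse held for 1451. With at least 2-fold on each side these were 47 and 36. Among the 47, Chac1, a glutathione-degrading enzyme of the stress response, was at 15.6 and 246 CPM in replicates 1 and 2 of day 21, against 47.7 and 63.0 CPM at day 0. Dgat2, an enzyme of triglyceride synthesis, was at 4.32 and 41.1 CPM at day 21 and 10.2 and 11.8 CPM at day 0, and Rab39b, Kyat3 and Rasgef1b had the same pattern. Among the 36, Nos2, the inducible nitric oxide synthase, was at 179 and 3.18 CPM in replicates 1 and 2 of day 21, against 29.4 and 68.5 CPM at day 0. The matrix gene Smoc2 was at 29.7 and 1.52 CPM at day 21 and 7.20 and 3.75 CPM at day 0, and Cd33, Pik3r5 and Serpina3f had that pattern as well. These 10 genes were chosen for day 21 libraries on opposite sides of day 0, so a test between the days could hardly call them. None passed edgeR's test over 12 libraries, with adjusted p between 0.347 and 0.721 and 0 at an unadjusted p below 0.05, and DESeq2 called 0. These outcomes follow from the choice and say nothing further about the genes.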

How the data were processed

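RNA was sequenced from 12 libraries of MC3T3-E1 cells, 2 for each of 6 groups. The authors deposited 1 table of raw counts per gene for 55291 gene symbols; HISAT2, SAMtools, featureCounts and the build mm10 are named in the submitters' processing notes, without versions. The annotation and the use of strand are not given in the sources used here. Reads of close gene copies or of overlapping genes may be uncertain. Between 57.9% and 63.3% of genes with 1 to 8 counts had an even count in each library, so mates of a pair may have been counted separately; counting intervals and floors, which cover counting error only, may then be too narrow. The 37 mitochondrial symbols had 0 counts in all libraries. Positions are from GENCODE mouse release 21, which holds 53292 of the symbols, and promoters from RefSeq.

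The counts were fitted in R 4.3.3 with edgeR 4.0.16 (TMM scaling, filterByExpr with a minimum count of 10, robust quasi-likelihood F test over 6 groups of all 12 libraries), and p-values were Benjamini-Hochberg adjusted over 17289 genes. SE is the log2 fold change divided by the root of F. CPM used TMM-scaled library sizes, and distances between libraries log2 CPM with a prior count of 2. Alternatives used limma 3.58.1 (voom with 1 weight per arm), DESeq2 1.42.0, other filters and scalings, other sets of libraries, and a replicate block. The scripts' fits were tested on simulated data. Depth was 31845405 to 38908453 counts in the libraries compared.

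Named were Col1a1, Runx2, Sp7, Alpl, Bglap and Sox9; the 15 concordant genes with the widest gap in each direction and a mean log2 CPM of at least 1; up to 3 called genes with the widest gap in each of 31 gene lists; and, for the stressed library, the 5 ER stress genes and 6 genes each way that differed most between the day 21 libraries, with up to 5 each way that lay on opposite sides of day 0. Other genes were chosen after their values were seen. Members and lists were chosen with earlier results of these data known. Predicted or unnamed genes were counted and not named, and a few genes that the rule names are counted in their lists but not reported here.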

Additional observations from a re-analysis of the deposited data

Results flagged for a closer look

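The change of Tnn at day 21 differed between the arms by 4.78 on the log2 scale (control minus IFN, adjusted p = 0.00561, edgeR's test of the difference), with 293 and 443 CPM in control and 24.6 and 13.3 CPM with IFN at day 21. Of 21 other settings, 20 called this difference, with values between 4.25 and 5.27 over all 21. The exception was the arm-weighted fit (4.81, adjusted p = 0.15).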

How the results depend on the processing

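The number of genes called at day 21 was 1114, of which 526 were concordant, and 16 genes differed between the arms. These 3 numbers were 280, 155 and 78 in the arm-weighted fit, 113, 113 and 5 when a fold of at least 2 was tested, and 2033, 1044 and 153 without both outlying libraries (control day 21 replicate 2 and control day 0 replicate 1). The control libraries alone gave 49 called and 49 concordant genes, the 4 libraries compared alone 25 and 25, and the control libraries without day 21 replicate 2, added after seeing the data, 67 and 67. DESeq2 called 2590 genes and 187 differences, and no filter on low counts 2775 and 605. With libraries at least 4-fold apart, 198 genes were concordant. Leaving out 1 library gave between 527 and 5762 called genes, 365 to 2923 concordant genes and 3 to 2369 differences; the highest of each came without control day 21 replicate 1, when the stressed library stands alone for day 21 with the spread of the remaining groups assumed for it, and the gene filter then kept more genes. Without control day 21 replicate 2, 925 genes were called, and without control day 0 replicate 1, 550. Leaving out any 1 IFN library gave 527 to 565.

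The share of called genes that rose was 59.2%. It was 85.7% in the control libraries alone, 92% in the 4 libraries compared, 91.0% in the control libraries without day 21 replicate 2, 76.1% for a fold of at least 2 and 49.2% without both outlying libraries. Library sizes without TMM shifted the median of all genes to -0.15 and called 920 genes, 51.3% of them higher. The log2 fold change of Bglap was 2.70 and reversed to -0.89 without day 21 replicate 2, to -0.90 in the control libraries without it and to -1.15 without both outlying libraries; leaving out 1 library gave -0.89 to 3.62. That of Sox9 was 0.21 and reversed to -0.11 without control day 0 replicate 2, and leaving out 1 library gave -0.11 to 0.60. Without both outlying libraries the log2 fold change of Sox9 was 0.71. The causes of these changes were not tested.

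Of the 92 genes named and followed through the settings, 44 stayed on the same side of the threshold in the arm-weighted fit and 31 in the control libraries alone. The correlation of same-numbered deviations was 0.0801 between control day 0 and day 21, 0.107 between day 0 and day 14 and 0.110 between day 14 and day 21. It was not above 0.0206 between any other groups. Such a correlation over all genes cannot exclude that replicate numbers pair the control samples. With a replicate block, 819 genes were called, 450 were concordant and 12 differed between the arms.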

Other observations

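Genes of the circadian clock, looked at after their values were seen, moved in both directions. Of 19 genes, 16 were tested, and 3 rose and 6 fell in the 12-library fit, to be read beside the 6.44% called over all genes. No tested clock gene passed the control-only fit, which called 0.304% of all genes. A set looked at after its values were seen gives no test of the clock. Arntl, a core activator of the clock, was at 80.7 and 98.8 CPM at day 21, against 37.2 and 32.7 CPM at day 0 (1.36 ± 0.26, adjusted p = 0.0155; control-only 0.162, arm-weighted 0.0333). Per3, a repressor, was at 4.20 and 5.07 CPM at day 21 and 19.8 and 29.3 CPM at day 0 (-2.41 ± 0.28, adjusted p = 0.00159; control-only 0.0592, arm-weighted 0.0198). Tef, a relative of Dbp, was at 55.9 and 51.1 CPM at day 21 and 137 and 159.5 CPM at day 0 (-1.47 ± 0.18, adjusted p = 0.00193; control-only 0.0911, arm-weighted 0.00461). Nr1d1, a repressor of Arntl, was at 53.6 and 39.7 CPM at day 21 and 156 and 100.2 CPM at day 0 (-1.45 ± 0.34, adjusted p = 0.0323; control-only 0.214, arm-weighted 0.0542, 0.154 without day 21 replicate 2). The days did not overlap for these 4 genes, as for 1113 of the 1114 called genes, and none of the 4 passed the control-only fit. Per2 did not pass (11.8 and 24.5 CPM at day 21, 28.3 and 23.3 CPM at day 0), and its days overlapped. The hour of harvest is not given in the labels.

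Counts on 18 type I interferon genes summed to 30 and 22 in the control libraries of day 21, against 6 and 2 at day 0; the other 8 libraries of the series had 4 to 18. Ifnb1 had 8 and 0 counts at day 21 and 0 in both libraries of day 0. These are few reads.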
